A study of Homo sapiens with 6 samples.

Results

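SR proteins and heterogeneous nuclear ribonucleoproteins (hnRNPs) were followed in lenvatinib-resistant TPC-1 cells with and without a hairpin against KRT15. The families were chosen with earlier results of these data known. Their genes were taken by symbol, as protein-coding rows named SRSF with a number or HNRNP with letters or digits. From these rows 1 hnRNP gene was left out and is not reported here. This left 34 genes, 12 SR proteins and 22 hnRNPs, among 22681 genes in the count table. TPC-1 is a human papillary thyroid carcinoma line. All 6 cultures were the lenvatinib-resistant derivative TPC-1-Len and were kept in 10 µM lenvatinib, a kinase inhibitor. They differed in the transfected short hairpin RNA, a non-targeting control (shNC, 3 libraries) or one against KRT15, a type I keratin (shKRT15, 3 libraries). The design text calls the replicates biological without saying how they were separated, and every p-value rests on the spread among these libraries, which may be technical. With 1 hairpin per group, an effect of KRT15 loss and an effect of the hairpin itself cannot be told apart. Drug-free and drug-sensitive cells were not analysed here.

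SR proteins bind exons through RNA recognition motifs and recruit the spliceosome through a tail rich in arginine and serine, which kinases of the SRPK and CLK families phosphorylate. hnRNPs coat nascent transcripts and often oppose exon inclusion, and several also act in export, stability and translation of mRNA. Both families are abundant in dividing cells, and many members limit their own mRNA by splicing it into forms that nonsense-mediated decay removes. The counts are per gene and merge such forms with the coding ones. In bulk RNA, fewer cells of a type and less RNA per cell cannot be told apart.

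Most hnRNP transcripts were higher in shKRT15, while most SR proteins did not pass the test. Of 20 tested hnRNPs, 16 rose, none fell and 4 did not pass the test. Of 12 SR proteins, 4 rose (SRSF1, SRSF2, SRSF3 and SRSF8), 1 fell (SRSF11) and 7 did not pass. Calls rest on edgeR's quasi-likelihood test over all genes, with Benjamini-Hochberg adjusted values under 0.05. By that rule 45.0% of 14356 tested genes were called, 22.1% as higher and 23.0% as lower. Among the 4218 tested genes of at least 50 CPM (reads of a gene per 1e+06 reads of the library, scaled with TMM factors), 57.3% were called, 29.9% as higher and 27.4% as lower. Against these backgrounds, 80.0% of the tested hnRNPs were called higher. The 33.3% of SR proteins called higher is near the 29.9% of tested genes of at least 50 CPM, and 8.33% were called lower. The median log2 fold change, shKRT15 over shNC, was 0.46 over the tested hnRNPs, 0.13 over the SR proteins and 0.00 over all genes tested (−0.0013). The median of the SR proteins was 0.0524 without shNC replicate 1 and 0.216 after correction of each library for its trend with transcript GC content and length. With that correction, 6 of the 12 SR proteins were called higher and 0 lower. Of all 14356 genes tested, 49% were then called, higher and lower together. The nearness of the SR proteins to the 29.9% is thus stated for the uncorrected test only. That share was not computed with the correction for genes of at least 50 CPM.

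The 2 groups of libraries did not overlap for 17 hnRNPs, all higher in shKRT15, and for 6 SR proteins, 5 higher and 1 lower. Over all tested genes, 54.0% were apart, 26.9% with shKRT15 higher and 27.1% with shKRT15 lower. Summed over the family, hnRNP transcripts held 4735 to 4905 CPM in shNC and 6724 to 6946 CPM in shKRT15, a ratio of means of 1.42. The SR proteins held 1424 to 1509 CPM and 1644 to 1708 CPM, a ratio of 1.15. The plot of levels by library shows each gene.

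**Figure D1:**
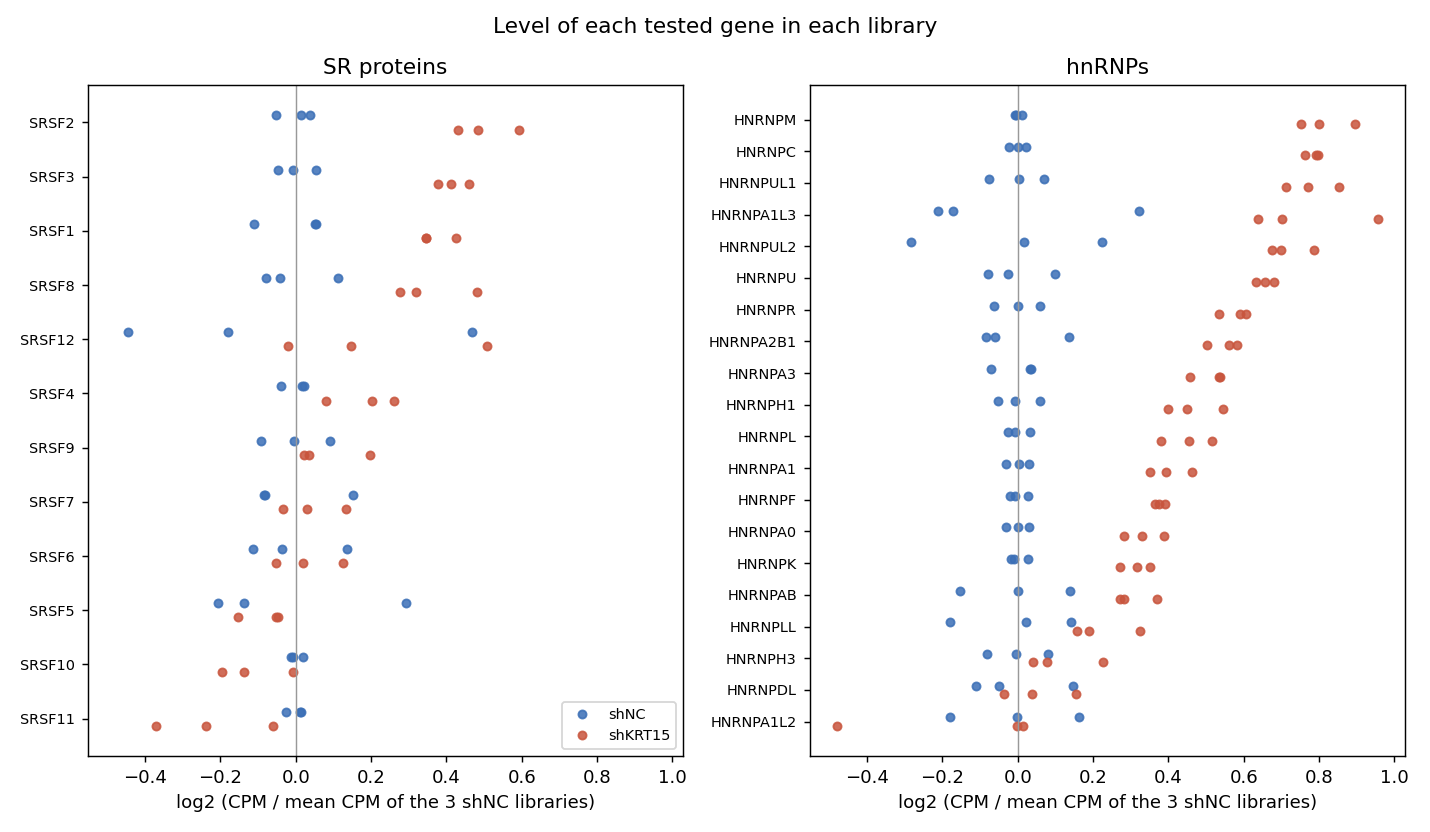
Level of each tested SR protein (left) and hnRNP (right) gene in each of the 6 libraries, as log2 of its CPM over the mean CPM of the 3 shNC libraries, with shNC in blue and shKRT15 in red. From HNRNPAB upward every hnRNP has its shKRT15 libraries to the right of its shNC libraries, whereas SRSF12 and the SR proteins from SRSF9 down to SRSF10 overlap.

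The libraries held 36286059 to 41343780 counted reads. KRT15 itself, the target of the hairpin, went from 32.3 ± 3.77 CPM (SD, n = 3) in shNC to 24.7 ± 0.365 CPM (SD, n = 3) in shKRT15 (log2 fold change −0.38 ± 0.10 SE, adjusted p = 0.00465). The thyroid factor PAX8 stood at 375 and 410 CPM and the epithelial keratin KRT18 at 116 and 215 CPM. Lower levels were found for the keratin KRT8 (12.9 and 14.9 CPM), the thyroid factor FOXE1 (14.6 and 15.3 CPM) and thyroglobulin, TG (1.58 and 0.808 CPM, log2 fold change −0.97, adjusted p = 0.0512). EPCAM, CDH1, NKX2-1 and TSHR had means under 0.05 CPM in both groups. All 6 proliferation markers (MKI67, TOP2A, MCM2, TYMS, CCNB1 and CDK1) rose, and their summed level was 607 to 662 CPM in shNC and 1329 to 1378 CPM in shKRT15. Fibroblast markers (4 genes, summed) went from 16.3 to 21.4 CPM in shNC to 4.38 to 5.57 CPM in shKRT15. Leukocyte markers (4 genes in the table) went from 1.04 to 1.38 CPM to 0.0932 to 0.293 CPM, and endothelial markers (2 genes in the table) from 0.646 to 1.04 CPM to 0.932 to 1.66 CPM. The part of these markers in the results on SR proteins and hnRNPs was not tested.

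Promoter sequence was available for 31 of the 34 genes, from RefSeq (GRCh38.p14), as 250 bases before and 50 bases after a transcription start, the one nearest the gene's 5′ end where several were listed. SRSF2, HNRNPA1 and HNRNPA1L3 had no entry. The 4 stretches below are the 150 bases before the start for the pair of hnRNPs with the largest rises (HNRNPM and HNRNPC), for SRSF3, an SR protein that rose, and for SRSF11, the SR protein that fell. They are given 5′ to 3′ on the strand of the gene, and capitals mark matches to the motifs listed after them. HNRNPM lies on the plus strand (chr19:8444825-8444974), HNRNPC on the minus strand (chr14:21269443-21269592), SRSF3 on the plus strand (chr6:36594212-36594361) and SRSF11 on the plus strand (chr1:70205546-70205695).
HNRNPM: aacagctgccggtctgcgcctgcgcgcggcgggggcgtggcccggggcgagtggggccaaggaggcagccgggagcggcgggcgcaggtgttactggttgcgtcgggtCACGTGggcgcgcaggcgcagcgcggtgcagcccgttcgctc
HNRNPC: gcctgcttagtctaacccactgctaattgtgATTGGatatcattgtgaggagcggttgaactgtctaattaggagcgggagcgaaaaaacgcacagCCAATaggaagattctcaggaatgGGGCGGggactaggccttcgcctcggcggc
SRSF3: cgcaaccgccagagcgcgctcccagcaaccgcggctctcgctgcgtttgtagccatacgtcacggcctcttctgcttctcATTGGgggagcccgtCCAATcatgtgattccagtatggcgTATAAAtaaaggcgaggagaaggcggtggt
SRSF11: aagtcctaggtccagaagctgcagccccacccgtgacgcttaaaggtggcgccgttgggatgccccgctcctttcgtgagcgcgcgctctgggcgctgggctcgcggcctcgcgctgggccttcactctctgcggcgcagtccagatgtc

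The motifs searched, on both strands, were the NF-Y box CCAAT (read on the other strand as ATTGG), the SP1 box GGGCGG, the ETS box CCGGAAGT, the CRE TGACGTCA, the E2F forms TTTGGCGC, TTTCCCGC and TTTCGCGC, the TATA box TATAAA and the E box CACGTG. An NRF1 and a YY1 site were searched too and were found in no tested member. In the stretch shown, HNRNPC held an NF-Y box on each strand, at −119 to −115 and −54 to −50 from the start, and an SP1 box at −30 to −25. SRSF3 held an NF-Y box on each strand as well (−70 to −66 and −55 to −51) and a TATA box at −30 to −25. HNRNPM held an E box at −42 to −37, and none of the letters searched was found in the window of SRSF11.

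Over the whole window, the NF-Y box was found in 12 of 17 promoters of members called higher (70.6%) and in 3 of 12 promoters of the other tested members (25.0%). It was found in 36.7% of the promoters of 10435 tested protein-coding genes and in 38.5% of those called higher. By family it was in 13 of 18 hnRNP promoters and 2 of 11 SR protein promoters. Most members called higher were hnRNPs, so call and family are mixed in this comparison. The 3 other tested members with the box were hnRNPs (HNRNPDL, HNRNPH3 and HNRNPLL). The 2 SR proteins with it, SRSF3 and SRSF8, were called higher. The SP1 box was in 10 of the 17 and 8 of the 12, against 69.9% of all. An E2F form was in 0 of the 17 and 2 of the 12 (SRSF10 and HNRNPLL), against 4.70% of all. The ETS box was found only among members not called higher, in SRSF4 and SRSF5, against 8.70% of all. In HNRNPU the NF-Y boxes on the 2 strands overlap each other, and in HNRNPLL the E2F form overlaps an SP1 box. These matches describe letters in the sequence and were not tested against the changes in level.

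Among hnRNPs, HNRNPM and HNRNPC had the largest log2 fold changes, with HNRNPUL1 (0.78) and HNRNPA1L3 (0.77) just below them. After GC and length correction HNRNPM stood at 0.70 and HNRNPC at 0.91. HNRNPM, a splicing regulator that binds GU-rich sequence, had 147, 147 and 149 CPM in the shNC libraries and 257, 249 and 275 CPM in the shKRT15 libraries. The shNC libraries lay close together and all 3 shKRT15 libraries were far above them. Its log2 fold change was 0.82 ± 0.07 (SE, adjusted p = 3.66e-08). HNRNPC, which binds uridine tracts and keeps cryptic exons out of mRNA, had 658, 670 and 679 CPM in shNC and 1136, 1161 and 1158 CPM in shKRT15. That is a log2 fold change of 0.78 ± 0.07 (adjusted p = 3.55e-08) in the hnRNP gene with the highest level per transcript length. Per kb of its principal transcript, HNRNPC went from 390 to 672 CPM per kb.

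The HNRNPU group, nuclear matrix proteins that bind chromatin-associated RNA, rose together. HNRNPU (chromosome 1, 244850297 to 244864543) had 391, 358 and 346 CPM in shNC and 565, 585 and 575 CPM in shKRT15, a log2 fold change of 0.66 ± 0.07 (adjusted p = 7.15e-07). Its relative HNRNPUL1 had 166, 159 and 150 CPM against 270, 259 and 285 CPM (0.78 ± 0.07, adjusted p = 1.07e-07). HNRNPUL2, at a lower level, had 8.81, 10.8 and 12.5 CPM against 17.1, 18.5 and 17.4 CPM (0.72 ± 0.13, adjusted p = 0.000211). The groups were apart for all 3 genes. The annotated span of HNRNPUL2 overlaps the readthrough gene HNRNPUL2-BSCL2 on the same strand, so its reads may have been split. HNRNPUL1 overlaps TGFB1 on the opposite strand, and TGFB1 stood at a log2 fold change of 0.06 (adjusted p = 0.56). HNRNPU likewise overlaps COX20 on the opposite strand (−0.16, adjusted p = 0.125).

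The A/B group binds UAGG-like elements and silences exons, and 6 of its 7 members rose. HNRNPA2B1 had 481, 473 and 550 CPM in shNC and 710, 751 and 740 CPM in shKRT15 (log2 fold change 0.55 ± 0.07, adjusted p = 1.09e-05). It overlaps CBX3 and NFE2L3 on the opposite strand, which were called lower (−0.35 and −0.19). HNRNPA3 had 242, 225 and 242 CPM against 325, 343 and 343 CPM (0.51 ± 0.07, adjusted p = 9.83e-06). HNRNPA1, the best known of the group and abundant in every library, had 702, 685 and 714 CPM against 920, 893 and 966 CPM (0.40 ± 0.07, adjusted p = 9.76e-05). Each of these genes was apart between the groups. The intronless HNRNPA0 (0.33 ± 0.07) and HNRNPAB (0.31 ± 0.08) rose by less. HNRNPAB overlaps PHYKPL on the opposite strand, which was called lower (−0.40, adjusted p = 0.00623).

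A pair of retrocopies related to HNRNPA1 gave different results. HNRNPA1L3 had 3.81, 3.71 and 5.36 CPM in shNC and 6.99, 6.68 and 8.33 CPM in shKRT15 (0.77 ± 0.18, adjusted p = 0.00214). HNRNPA1L2 stood at 5.63 ± 0.661 CPM in shNC and 5.11 ± 0.935 CPM in shKRT15 (SD, n = 3) and did not pass (−0.14 ± 0.18, adjusted p = 0.57). Both are near-identical to HNRNPA1, and how reads were divided between the 3 genes is not known.

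HNRNPR, which binds RNA in axons and nuclei and is close to SYNCRIP, had 135, 130 and 124 CPM in shNC and 198, 195 and 188 CPM in shKRT15 (0.58 ± 0.07, adjusted p = 2.75e-06). No shNC library reached the lowest shKRT15 library. HNRNPK, a KH-domain protein that binds cytidine-rich sequence, had 665, 648 and 645 CPM against 788, 813 and 832 CPM. Its log2 fold change of 0.31 ± 0.07 (adjusted p = 0.000815) was among the smallest of the called hnRNPs although its level per kb was the second highest (222 and 276 CPM per kb). HNRNPL, which binds CA repeats, rose by 0.45 ± 0.07 (262 to 359 CPM, adjusted p = 3.58e-05). HNRNPL overlaps the protein-coding gene model AC008982.1 on the same strand, so its reads may have been split. Its paralog HNRNPLL, a regulator of CD45 splicing in lymphocytes, stood at 25.8 ± 2.86 and 30.2 ± 1.88 CPM (SD, n = 3) and did not pass (0.23 ± 0.10, adjusted p = 0.0818), though its groups were apart.

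The H/F group binds guanine tracts and was uneven. HNRNPH1 rose from 140 ± 5.45 to 193 ± 9.95 CPM (SD, n = 3; log2 fold change 0.47 ± 0.07, adjusted p = 3.92e-05) and HNRNPF from 316 ± 5.45 to 411 ± 3.78 CPM (0.38 ± 0.06, adjusted p = 0.000137). HNRNPH3 stood at 89.8 ± 5.0 and 97.4 ± 6.70 CPM and overlapped between groups (0.12 ± 0.08, adjusted p = 0.237). HNRNPH3 overlaps RUFY2 on the opposite strand, which was called lower (−0.62, adjusted p = 0.000183), and PBLD, which was not called (−0.52, adjusted p = 0.159). HNRNPH3 and HNRNPLL have the lowest GC contents of the tested hnRNPs with a value (39.9% and 38.7%). Both were called higher after that GC and length correction (0.34, adjusted p = 3.42e-05, and 0.43, adjusted p = 0.000612). HNRNPDL, whose mRNA is known to carry regulated exons in its 3′ part, had overlapping groups at 222 ± 21.2 and 231 ± 15.4 CPM (0.05 ± 0.08, adjusted p = 0.612).

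A pair of hnRNP genes was under the filter on low counts and was not tested. HNRNPH2 had 2 reads over the 3 shNC libraries and 1 read over the shKRT15 libraries, and its span lies in the readthrough gene RPL36A-HNRNPH2 on the same strand. HNRNPCL1, a relative of HNRNPC, had 1 read in all.

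**Figure D2:**
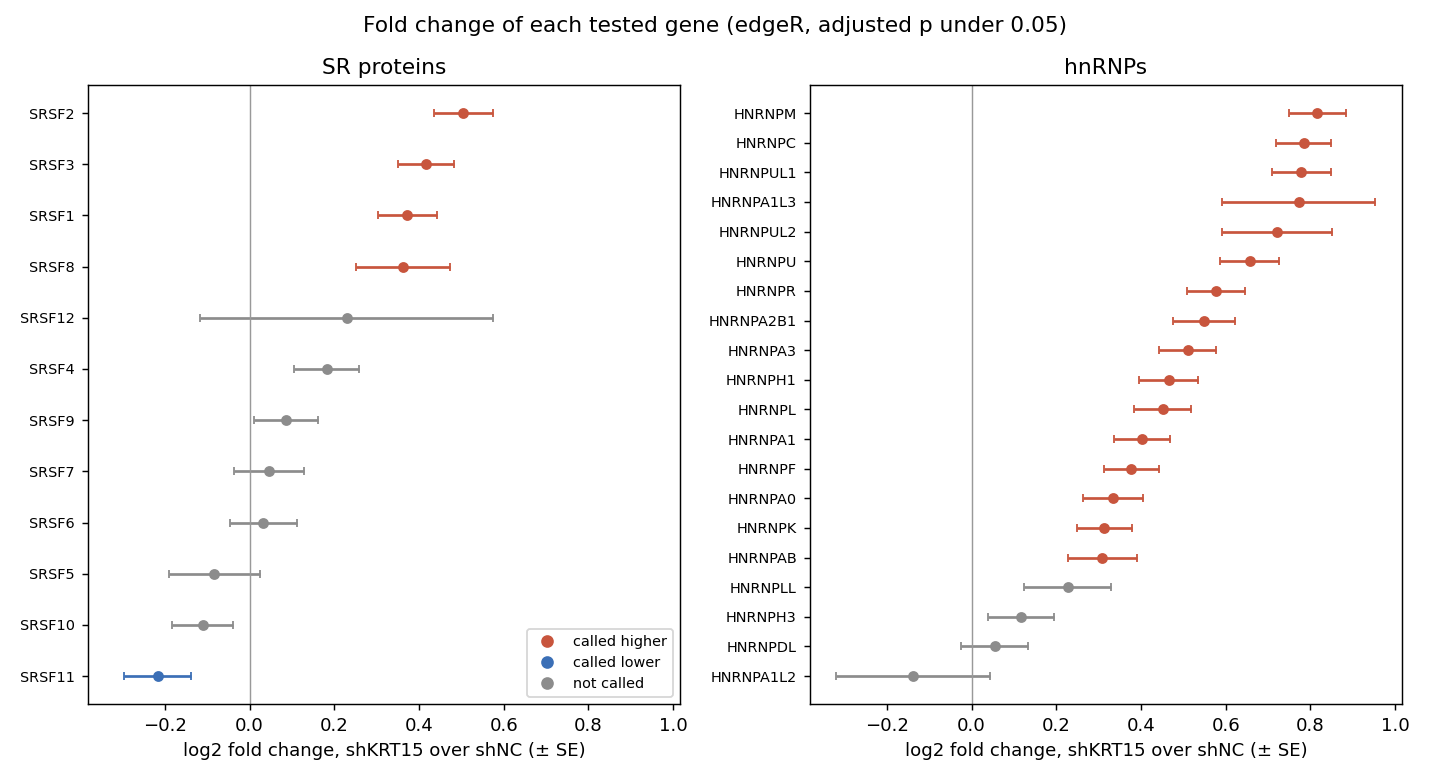
Log2 fold change, shKRT15 over shNC, with its standard error for each tested SR protein (left) and hnRNP (right) from edgeR's quasi-likelihood test on 3 libraries a group. Red marks genes called higher (4 and 16), blue the gene called lower (SRSF11) and grey those that did not pass.

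Among SR proteins, the rises were in SRSF2, SRSF3, SRSF1 and SRSF8. SRSF2, a nuclear exon activator that is mutated in myeloid disease, had 154, 145 and 151 CPM in shNC and 210, 202 and 226 CPM in shKRT15 (log2 fold change 0.50 ± 0.07, adjusted p = 1.65e-05). The groups were well apart. SRSF2 overlaps MFSD11 on the opposite strand, which went the other way (−0.64, adjusted p = 6.5e-05). SRSF1, the first SR protein shown to switch splice sites and a known oncoprotein, had 220, 220 and 196 CPM against 270, 270 and 285 CPM (0.37 ± 0.07, adjusted p = 0.00036). Per kb it was the most abundant SR gene, at 140 and 182 CPM per kb. SRSF1 overlaps the protein-coding gene model AC015813.2 on the same strand, so its reads may have been split.

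SRSF3, a small SR protein that also couples splicing to export, had 287, 295 and 308 CPM in shNC and 386, 408 and 395 CPM in shKRT15, with no overlap (0.42 ± 0.07, adjusted p = 7.07e-05). SRSF8, a copy of SRSF2 in origin, rose from 14.1 ± 1.01 to 18.1 ± 1.37 CPM (0.36 ± 0.11, adjusted p = 0.0136). Omitting shNC replicate 2 (adjusted p = 0.0571) or shKRT15 replicate 1 (adjusted p = 0.0824) ended that call. SRSF4 stood at 73.0 ± 1.64 and 82.9 ± 5.25 CPM with groups apart and just missed the threshold (0.18 ± 0.08, adjusted p = 0.0616).

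SRSF11 was the only called member that was lower, and the call was fragile. It had 142, 146 and 146 CPM in shNC and 123, 139 and 112 CPM in shKRT15 (log2 fold change −0.22 ± 0.08, adjusted p = 0.0342). All 3 shKRT15 libraries lay below the shNC libraries, with shKRT15 replicate 2 close to them. The call was lost without shNC replicate 1 (adjusted p = 0.0579) or 2 (0.107) and without shKRT15 replicate 1 (0.139) or 3 (0.164). It was also lost with total-count scaling (0.157). After GC and length correction its log2 fold change was 0.01 (adjusted p = 0.871). SRSF11 has one of the lowest GC contents of the members (38.3%).

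In shNC, SRSF9 and SRSF10 followed SRSF1 in level per kb (116 and 71.2 CPM per kb), and SRSF3 was close behind at 70.3 CPM per kb. SRSF9, a close relative of SRSF1, had 131, 139 and 149 CPM in shNC and 142, 143 and 160 CPM in shKRT15 (0.09 ± 0.08, adjusted p = 0.376). It overlaps GATC on the opposite strand (0.09, adjusted p = 0.432). SRSF10, which represses splicing when dephosphorylated, had 118, 115 and 115 CPM against 106, 116 and 101 CPM (−0.11 ± 0.07, adjusted p = 0.233). Both overlapped between the groups. SRSF5, SRSF6 and SRSF7 had log2 fold changes of −0.08 ± 0.11, 0.03 ± 0.08 and 0.05 ± 0.08 and overlapped as well. For these 3 genes shNC replicate 3 was the highest shNC library: SRSF5 read 74.8, 78.4 and 106 CPM in the 3 shNC libraries, SRSF6 130, 137 and 154 CPM and SRSF7 78.9, 79.1 and 92.9 CPM. Without that library SRSF5 stood at 0.09 (adjusted p = 0.371). SRSF6 and SRSF7 were called higher after GC and length correction (0.20, adjusted p = 0.0239, and 0.23, adjusted p = 0.00455). SRSF12 had the lowest level of the tested members, at 1.28 ± 0.435 and 1.5 ± 0.287 CPM.

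**Figure D3:**
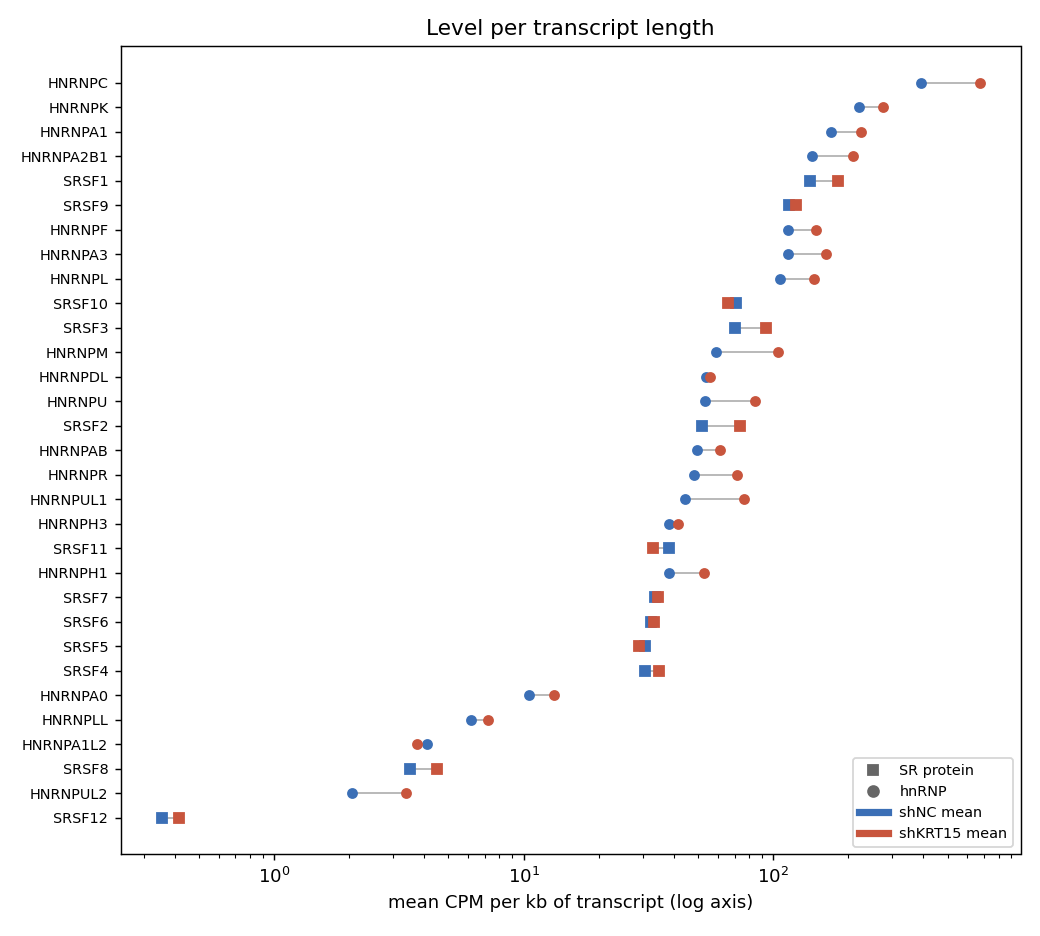
Mean CPM per kb of principal transcript (log axis) in shNC (blue) and shKRT15 (red) for the 31 tested members with a transcript in GENCODE release 29, squares for SR proteins and circles for hnRNPs. HNRNPC has the highest level in both groups (390 and 672 CPM per kb) and SRSF12 the lowest (0.355 and 0.416 CPM per kb).

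Ratios between related genes do not depend on how libraries are scaled, so 10 pairs of relatives were compared within each library. Such ratios still carry any trend with GC content or length, and they were not computed after that correction. HNRNPH1 and HNRNPH3, for example, have GC contents of 51.6% and 39.9%. SRSF3 over SRSF7 was 3.64, 3.73 and 3.32 in shNC and 4.52, 4.45 and 4.83 in shKRT15. SRSF1 over SRSF9 was 1.68, 1.58 and 1.32 against 1.90, 1.89 and 1.78. HNRNPH1 over HNRNPH3 was 1.56, 1.59 and 1.54 against 1.95, 1.95 and 2.07. In these 3 pairs the groups did not overlap, with the first gene gaining on its relative by 0.37, 0.29 and 0.35 on the log2 scale. For SRSF1 over SRSF9 the gain was 0.19 without shNC replicate 3. Each had p = 0.1 in an exact permutation test (two-sided), the smallest that 3 libraries against 3 allow, and 0.286 after Benjamini-Hochberg adjustment over the 10 pairs. The other 7 pairs overlapped, among them HNRNPA2B1 over HNRNPA1 (0.685 to 0.771 in shNC and 0.766 to 0.841 in shKRT15) and HNRNPU over HNRNPUL1 (2.26 to 2.36 and 2.01 to 2.26). The pairs were chosen after counts had been seen.

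**Figure D4:**
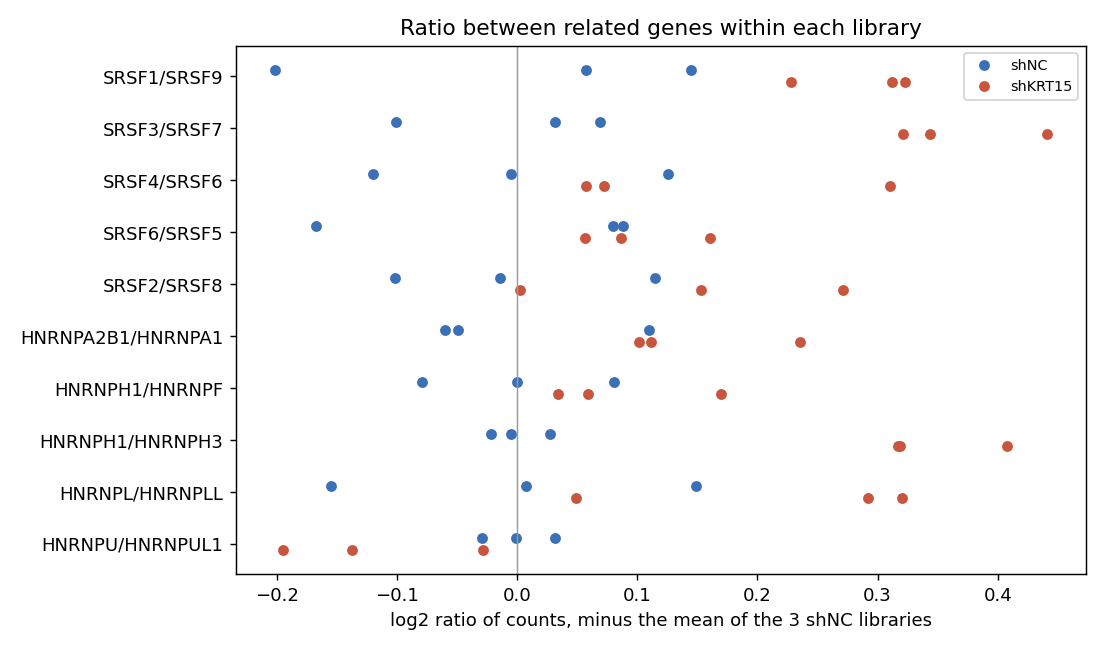
Log2 ratio of counts between related genes in each library, less the mean of the 3 shNC libraries, with shNC in blue and shKRT15 in red. SRSF1/SRSF9, SRSF3/SRSF7 and HNRNPH1/HNRNPH3 are the 3 of 10 pairs whose groups do not overlap.

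The annotation lists decay targets and retained introns for many of these genes. All 12 SR protein genes have at least 1 transcript annotated in GENCODE release 29 as a target of nonsense-mediated decay, as do 12 of 19 tested hnRNPs with an entry (63.2%), against 42.7% of 12698 tested protein-coding genes. Transcripts with a retained intron are listed for 9 of the 12 SR genes (75.0%), 13 of the 19 hnRNPs (68.4%) and 57.6% of all. HNRNPH1 has 50 annotated transcripts, 16 of them with a retained intron, and HNRNPU has 9 annotated decay targets among 31. SRSF7 has 6 among 12. A change in the share of such forms would be inside the gene counts and cannot be read from them. Across the 31 tested members with a value, the log2 fold change had a Spearman correlation of 0.37 with GC content, and across 13552 tested genes of 0.25. Genes are not independent replicates, and both values are given as description.

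Genes of other proteins in hnRNP complexes rose more often than they fell. Of 26 tested, 17 rose (65.4%) and 2 fell (7.69%), against 22.1% and 23.0% of all genes tested. Among tested genes of at least 50 CPM the shares were 29.9% and 27.4%. PTBP1, the polypyrimidine tract repressor, rose by 0.75 ± 0.07 (276 to 464 CPM) and NONO, a paraspeckle protein, by 0.60 ± 0.06 (271 to 410 CPM). PTBP2, the neural paralog that PTBP1 is known to repress through splicing, fell from 16.8 ± 1.05 to 6.58 ± 1.92 CPM (SD, n = 3; −1.35 ± 0.17, adjusted p = 8.33e-06). The helicase gene DDX5 fell by 0.27 on the log2 scale (adjusted p = 0.00491), a call lost without shKRT15 replicate 1 (adjusted p = 0.0586).

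SR-related proteins and coactivators were mixed. Of 29 tested, 9 rose (31.0%) and 4 fell (13.8%), against 22.1% and 23.0% of all genes tested. Tested genes of at least 50 CPM had 29.9% and 27.4%. The share called in either direction, 44.8%, is near the 45.0% of all genes tested. Among those of at least 50 CPM it was 57.3%. The 3′ splice site factor U2AF2 (0.52 ± 0.08), THRAP3 (0.50 ± 0.08) and the nuclear speckle scaffold SRRM2 (0.65 ± 0.12) rose. RBM39 (−0.38 ± 0.09), NSRP1 (−0.70 ± 0.20) and SCAF11 (−0.28 ± 0.10) fell. The call of NSRP1 was lost without shKRT15 replicate 1 (adjusted p = 0.0594) or 3 (0.0588). Omitting either shNC replicate 1, shNC replicate 2, shKRT15 replicate 1 or shKRT15 replicate 3 ended that of SCAF11 (adjusted p = 0.0838 to 0.139), as did total-count scaling (0.105) and GC and length correction (0.17). The count of falls was 1 instead of 4 when shKRT15 replicate 1 or 3 was omitted, and 2 with total-count scaling or GC and length correction.

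Among the enzymes that act on SR proteins, transcripts of the kinases CLK1, CLK3 and CLK4 were lower, and CLK2 was not called. Of 16 tested kinases, phosphatases and importers, 4 rose and 5 fell. These shares were 25.0% higher and 31.2% lower. All genes tested had 22.1% and 23.0%, and tested genes of at least 50 CPM had 29.9% and 27.4%. The rises numbered 2 when shNC replicate 2 or shKRT15 replicate 1 was omitted. The falls numbered 3 with total-count scaling or when shNC replicate 1 or 2 or shKRT15 replicate 1 or 3 was omitted. CLK1, a nuclear kinase that releases SR proteins from speckles, had 56.6 ± 7.94 CPM in shNC and 31.0 ± 5.72 CPM in shKRT15 (SD, n = 3; −0.87 ± 0.13, adjusted p = 4.34e-05). Its relative CLK4 fell from 15.3 ± 1.98 to 8.90 ± 1.77 CPM (−0.78 ± 0.15, adjusted p = 0.000427) and CLK3 by 0.30 on the log2 scale (adjusted p = 0.0139, and 0.0592 without shKRT15 replicate 2). The cytoplasmic kinase SRPK1 stood at 164 ± 5.0 and 160 ± 6.98 CPM (−0.04 ± 0.07, adjusted p = 0.71) and CLK2 at 31.4 ± 2.78 and 34.1 ± 0.318 CPM, with groups apart (0.12 ± 0.09, adjusted p = 0.318). The phosphatase genes PPP1CC (0.27 ± 0.07) and PPP1CA (0.22 ± 0.07) and the kinase gene PRPF4B (0.31 ± 0.09) rose. PPP1CA lost its call without shNC replicate 2 (adjusted p = 0.0542) or shKRT15 replicate 1 (0.056).

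Core spliceosome genes rose more often than they fell, 26 (66.7%) against 3 (7.69%) of 39 tested. Over all genes tested, 22.1% were higher and 23.0% lower, and among those of at least 50 CPM 29.9% and 27.4%. SNRPA, a subunit of the U1 particle (0.84 ± 0.08), and the branch-site factors SF3B3 (0.75 ± 0.08) and SF3B2 (0.50 ± 0.07) had the smallest p-values among the rises. SNRNP27 (−0.59 ± 0.09), SNRPB2 (−0.47 ± 0.10) and SNRNP35 (−0.54 ± 0.18) fell. Omitting either shNC replicate 2, shNC replicate 3, shKRT15 replicate 1 or shKRT15 replicate 3 ended the call of SNRNP35 (adjusted p = 0.0567 to 0.0824). GC and length correction ended that of SNRPB2 (adjusted p = 0.0522). Of 22 other alternative splicing regulators tested, 6 rose (27.3%) and 4 fell (18.2%). The share called, 45.5%, is near that of all genes tested (45.0%) and below the 57.3% of those of at least 50 CPM. KHDRBS1 (0.61 ± 0.07), RBM47 (0.70 ± 0.11) and RBFOX2 (0.40 ± 0.07) were among the rises. KHDRBS3 (−0.68 ± 0.12), RBM24 (−0.71 ± 0.12) and CELF1 (−0.23 ± 0.08) were among the falls. CELF1 was no longer called when shNC replicate 1, shNC replicate 2, shKRT15 replicate 1 or shKRT15 replicate 3 was omitted (adjusted p = 0.0835 to 0.14), nor with total-count scaling (0.101). The epithelial splicing regulators ESRP1 and ESRP2 were under the filter, with means of at most 0.215 CPM.

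Of 15 genes of nonsense-mediated decay and the exon junction complex, 6 rose (40.0%) and 2 fell (13.3%), against 22.1% and 23.0% of all genes tested. For tested genes of at least 50 CPM these shares were 29.9% and 27.4%. The helicase genes EIF4A3 (0.40 ± 0.09) and UPF1 (0.33 ± 0.08) rose, and UPF3B (−0.69 ± 0.16) and the kinase gene SMG1 (−0.34 ± 0.13) fell. UPF1 stood at 0.13 after GC and length correction (adjusted p = 0.044), and was no longer called when that correction was made in the replicate block (adjusted p = 0.0608). SMG1 was no longer called when shNC replicate 1, shNC replicate 2, shKRT15 replicate 2 or shKRT15 replicate 3 was omitted (adjusted p = 0.0752 to 0.151), with total-count scaling (0.0989) and with limma-voom (0.0604). The count of falls was then 1 with either setting and when shNC replicate 2 or shKRT15 replicate 3 was omitted.

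**Figure D5:**
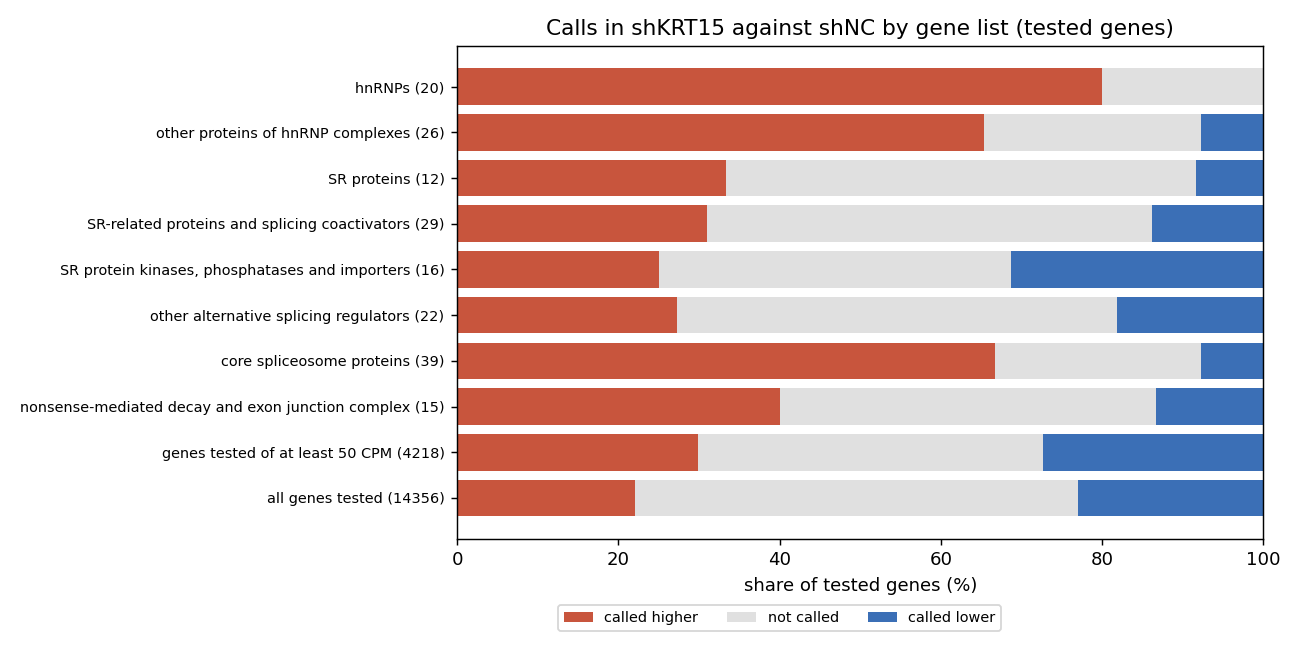
Share of tested genes called higher (red), called lower (blue) and not called (grey) for hnRNPs, SR proteins, 6 related lists, tested genes of at least 50 CPM and all genes tested, with the number tested in brackets. hnRNPs have 80.0% called higher and none called lower, and all genes tested have 22.1% and 23.0%.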

How the data were processed

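RNA from 6 cultures was sequenced as mRNA libraries on an Illumina platform, per the labels' protocols. The authors deposited raw counts of reads for each gene, and the genome build was GRCh38, per the submitters' processing notes. Not given in the sources used here are the aligner, counting tool, annotation and strand setting, so reads of overlapping genes on opposite strands cannot be separated. Libraries were grouped by title. The members and lists were chosen with earlier results of these data known. 1 further hnRNP gene, and some genes that the naming rule below would give, are not reported here.

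Counts were tested with edgeR 4.0.16 in R 4.3.3 (quasi-likelihood, robust, group as the only term) after TMM scaling and filterByExpr (minimum count 10, minimum total 15). P-values were adjusted by Benjamini-Hochberg over 14356 genes. Standard errors were derived from the F statistic. The fit was tested on simulated data. Libraries of 1 group differed beyond sampling noise (chi-square per degree of freedom 6.05 to 29.0), and each was counted as a sample. Such a difference can also be technical, so it does not show that the cultures were independent. Levels per kb used the principal transcript of GENCODE release 29, matched by Entrez number. GC content and length were available for 94.4% of tested genes.

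All members are described. Values in every library are given for members called with a log2 fold change of at least 0.5 in size, for the 3 smallest p-values in each direction and for the 3 most abundant members of each family per kb. SRSF3, SRSF5, SRSF6 and SRSF7 were added after their values were seen, as were SRPK1, CLK2, ESRP1 and ESRP2. From each related list up to 3 called genes in each direction with a mean of at least 1 CPM are named, by smallest p. Alternatives were DESeq2 size factors, total-count and upper-quartile scaling (the last added after seeing the data), DESeq2 1.42.0, limma-voom (limma 3.58.1), no filter, at least 1 CPM in 3 libraries, a replicate block, GC and length correction (mgcv 1.9.3), both together, protein-coding genes only, and each library left out.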

Additional observations from a re-analysis of the deposited data

How the results depend on the processing

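The counts of called hnRNPs stayed within 1.5 times of the reported ones in all 17 alternatives, and 18 of the 20 members called higher kept their call and direction in each of them. The exceptions were SRSF8 and HNRNPAB, the latter not called without shNC replicate 2 (0.24, adjusted p = 0.0573). The count of SR proteins called higher, reported as 4, ranged from 3 (without shNC replicate 2 or shKRT15 replicate 1) to 6 (with GC and length correction). The count of SR proteins called lower went from 1 to 0 with total-count scaling, after GC and length correction, and when that correction was made in the replicate block. Leaving out 1 library gave 0 to 1. Log2 fold changes that changed sign were those of SRSF10 (0.0307 after GC and length correction, 0.0313 with the block added) and SRSF11 (0.0115 and 0.0117). With 1 library left out, HNRNPA1L2 ranged from −0.215 to 0.00875, SRSF6 from −0.0149 to 0.105 and SRSF5 from −0.170 to 0.0866. The cause was not tested. SRSF4 was called higher with total-count scaling (0.24, adjusted p = 0.0145), with at least 1 CPM in 3 libraries (0.0483) and without shNC replicate 3 (0.0472), and HNRNPLL with total-count scaling (0.29, adjusted p = 0.0376).

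Deviations of libraries with the same replicate number correlated at 0.0188, −0.00742 and 0.0462, so the numbers were not taken to pair the libraries. With the replicate block, 6733 genes were called in place of 6464, and the member counts were unchanged at 16 hnRNPs and 4 SR proteins higher and 1 SR protein lower. At these depths counting error is small for most members, while SRSF12, HNRNPA1L2 and HNRNPA1L3, all under 10 CPM, are less precise.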
